A study of Drosophila melanogaster with 2 samples.

Results

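The genes described here are 10 *Drosophila melanogaster* genes of neuroblast fate and asymmetric division, namely ac, sc, l(1)sc, ase, dpn, insc, mira, numb, pros and brat. They were chosen by name and looked up in the dm6 annotation, which held 13968 protein-coding genes on 7 chromosomes, and all 10 were found. The region of each gene was the annotated gene with 10000 bp on either side. The data came from chromatin immunoprecipitation with sequencing (ChIP-seq) for Kah (Kahuli), a Snail-family zinc finger transcription factor. The material was whole embryos of 0 to 16 h, male and female pooled, from a transgenic line stably expressing Kah fused at its C-terminus to GFP. There were 2 biological replicates in 1 group and no second condition. The antibody field names kah, while the free text of both libraries calls them an input control, and the lists were treated as ChIP-seq peak lists. Whole embryos hold many tissues, so no summit can be placed in neuroblasts or in any other cell type.

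Neuroblasts are the stem cells of the fly nervous system. Proneural basic helix-loop-helix (bHLH) proteins give groups of ectodermal cells the ability to become neural, and a single cell of each group is set apart as the neuroblast. The neuroblast then divides asymmetrically: an apical complex orients the spindle, and adaptor proteins gather cell fate determinants at the basal side, where the smaller daughter, the ganglion mother cell, inherits them. Snail-family proteins other than Kah are themselves known regulators of neuroblast division.

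The fate determinant genes numb, pros and brat and the bHLH gene dpn had Kah summits of high confidence within 10000 bp, and the other 6 genes had none. The authors called 30000 candidate peaks per replicate and 30000 on both replicates together (the pooled list), and kept 4105 of the pooled candidates by the irreproducible discovery rate (IDR), which asks how alike replicates rank their peaks. Peak signal is the authors' own value per peak, on a scale that is not stated, and the 4105 IDR summits were the pooled candidates of highest signal. Of the 10 genes, 4 had an IDR summit in their region (dpn 2, numb 2, pros 3 and brat 5), and 6 had none (ac, sc, l(1)sc, ase, insc and mira). Among all protein-coding genes 57.9% had one within the same distance, so the count over the 10 genes was near the background. Of the proneural and neuroblast bHLH genes 1 of 5 had an IDR summit, against 3 of 5 asymmetric division and fate determinant genes. Gene length differs between these sets. Of coding genes of at most 5000 bp, which include ac, sc, l(1)sc, ase, dpn and mira, 54.6% had an IDR summit in the region. Of those over 10000 bp, which include insc, numb, pros and brat, 68.5% had one. The sets also differ in place, since 4 of the 5 bHLH genes lie in 1 complex on the X chromosome. The division and fate genes lie on 2L, 2R and 3R, so set, chromosome and locus cannot be told apart. With 5 genes in each set and members chosen with earlier results known, the difference between the sets was not tested.

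**Figure D1:**
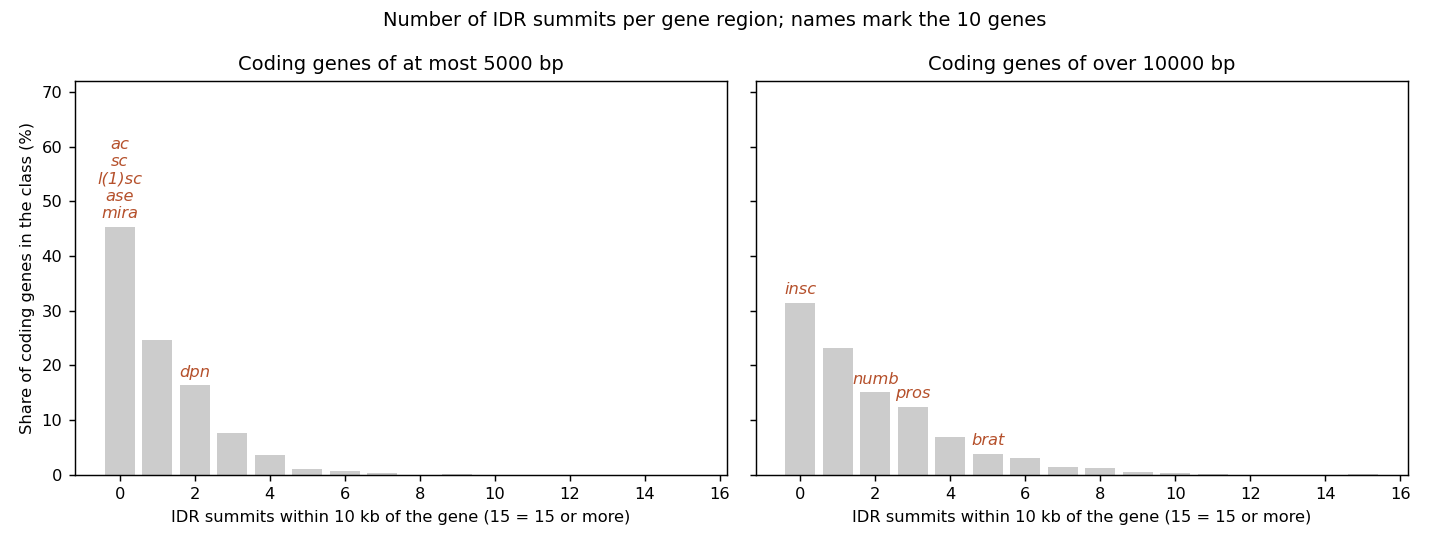
Share of protein-coding genes (vertical axis, percent) by the number of IDR summits within 10 kb of the gene (horizontal axis), for genes of at most 5000 bp (left) and over 10000 bp (right); names above the bars mark where the 10 genes stand. ac, sc, l(1)sc, ase, mira and insc stand at 0 summits, dpn and numb at 2, pros at 3 and brat at 5.

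Counted per length, the 5 bHLH regions held 2 IDR summits in 101465 bp of merged sequence, or 0.197 per 10 kb, and the 5 division and fate regions held 10 in 269896 bp, or 0.371 per 10 kb. The whole genome held 0.298 per 10 kb, and the median over the regions of single coding genes was 0.409 per 10 kb. The bHLH regions lay below both values, while the division and fate regions lay between them. Neither value is for the X chromosome alone, where 4 of the 5 bHLH genes lie. The median is also an unlike measure, taken gene by gene, while each set was counted over merged sequence. Coding genes had a median length of 2164.5 bp, whereas insc, numb, pros and brat are each over 10000 bp. The place of the division and fate regions beside that median is thus not like for like. For all pooled candidates the densities were 1.18 per 10 kb at bHLH genes, 3.19 at division and fate genes and 2.18 over the genome. By role, the fate determinants (numb, pros and brat) had 0.472 IDR summits per 10 kb. The neuroblast bHLH genes (ase and dpn) had 0.437. Both the proneural genes (ac, sc and l(1)sc) and the asymmetric division genes (insc and mira) had 0.

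The 3 proneural genes lie in the Achaete-Scute complex on the X chromosome and encode bHLH activators of neural fate. None had an IDR summit. Of their 5 pooled candidates, those with signals of 89.95, 86.4 and 66.1 lay above the pooled median of 58.1, and those of 41.5 and 40.5 below it. The gene sc (FBgn0004170, X 396060 to 397497, plus strand) was the only one of the 3 with a candidate at its promoter, taken as 500 bp on either side of an annotated transcription start site (TSS). That summit lay at 395968, 92 bp upstream of the start, with a pooled signal of 89.95 (rank 8455 of 30000), and the replicate lists gave 45.3 (replicate 1) and 43.2 (replicate 2). The replicates gave it almost the same value, and it stood below the lowest IDR signal of 149.7. It is shown because it is the strongest candidate in the 4 Achaete-Scute regions and carries the short words ACAGGT and CAGGTA. The Snail-family word CAGGTG was not found there, and CAGGTA is a site of the early activator Zelda. The sequence within 50 bp of this summit (dm6 chrX:395918-396018, plus strand) was read from the Release 6 assembly. It holds ACAGGT on the minus strand, overlapped there by a copy of the related word CAGGTA. A further copy of CAGGTA lies on the plus strand, and all are in capitals.

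sc promoter candidate: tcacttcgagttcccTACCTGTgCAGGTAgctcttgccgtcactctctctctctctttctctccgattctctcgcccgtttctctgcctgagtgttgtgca

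The other sc candidate, 5407 bp upstream, had a pooled signal of 41.5 and was found in replicate 1 (27.3) but not in replicate 2. For l(1)sc (FBgn0002561, X 409721 to 410817, plus strand) there was 1 candidate, 781 bp upstream of the start at 408940, with a pooled signal of 66.1, against 35.6 and 26.8 in replicates 1 and 2. For ac (FBgn0000022, X 370031 to 370947, plus strand) the nearest candidate was 7760 bp upstream at 362271, with a pooled signal of 86.4, 40.2 in replicate 1 and 48.7 in replicate 2. A further candidate of ac, 9718 bp upstream, lay in a coding exon of y, the yellow pigmentation gene, and had no summit within 100 bp in either replicate list. No candidate lay inside any of these 3 short genes. The regions of sc and l(1)sc share 7777 bp, but no candidate fell in the shared stretch.

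The fourth gene of the complex, ase (FBgn0000137, X 460747 to 463176, plus strand), encodes a bHLH protein made in neural precursors rather than in proneural clusters. Its 1 candidate lay 2679 bp upstream at 458068, with a pooled signal of 61.0, 28.7 in replicate 1 and 25.9 in replicate 2. From the start of ac to the end of ase the complex spans 93146 bp and held 7 candidates, or 0.752 per 10 kb, with 0 IDR summits. The nearest IDR summits on either side, at 338347 (signal 299) and 493979 (signal 364), lay 155632 bp apart. This was the 122nd longest of 4099 stretches between neighbouring IDR summits, whose median length was 10239 bp. Of the division genes, insc lay in one of 218026 bp (the 52nd longest) and mira in one of 89603 bp (the 335th longest). A region with 0 IDR summits lies whole within such a stretch, and the shortest of these regions, that of ac, is 20917 bp. Lengths above the median thus follow from the counts of 0 and are no separate result. Most candidates of the complex count as intronic only because the annotated gene CG32816, on the minus strand from 316576 to 470726, spans all 4 genes.

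The gene dpn (FBgn0010109, 2R 8228971 to 8232330, minus strand) encodes a Hairy-type bHLH repressor that keeps neuroblasts in the stem cell state. Among the 5 bHLH genes of the 10, it alone had IDR summits in its region. They lay at 8241508 (pooled signal 309, with 207 in replicate 1 and 107 in replicate 2) and at 8241710 (161, with 100.3 and 62.8), both higher in replicate 1. These summits were 9178 and 9380 bp upstream of dpn, close to the edge of the region. The septin gene pnut lies between them and dpn, and its start was the nearest coding start, at 3655 and 3857 bp. The summit at 8241710 lay in an exon of the non-coding gene lncRNA:CR44276. At the dpn promoter itself a candidate 172 bp upstream of the start had a pooled signal of 76.9, was listed in replicate 2 (64.4) and had no counterpart within 100 bp in replicate 1.

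Neither insc nor mira, the asymmetric division genes among the 10, had an IDR summit in its region. In the wider list described further on, all 6 apical complex genes had one and 1 of 2 basal adaptor genes did. Over that whole list the share was 54.5%, against 57.9% of all coding genes. The gene insc (FBgn0011674, 2R 20821262 to 20836028, minus strand) encodes the adaptor that links the apical polarity proteins to the spindle orientation machinery. Its region held 14 candidates, 7 of them in both replicate lists, at a density of 4.03 per 10 kb. The strongest lay 2101 bp upstream, in an intron of the non-coding gene lncRNA:CR44667, at a pooled value of 149.6, with 85.7 in replicate 1 and 67.9 in replicate 2. At rank 4106 it was the first candidate below the IDR threshold in the whole pooled list, and the lowest IDR signal was 149.7. Of its promoter candidates, one 469 bp upstream of the start had a signal of 108, with 63.5 in replicate 1 and 49.8 in replicate 2. Another, 87 bp inside, had 70.4 and was uneven between replicates, with 19.4 in replicate 1 and 60.0 in replicate 2. This is 2.73 SD from the median log2 ratio of replicate 2 over replicate 1 at IDR summits. The start of insc is shared with sktl, a lipid kinase gene on the same strand, and the genes cannot be separated there. Beyond the region, the nearest IDR summit was 48561 bp from insc.

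The gene mira (FBgn0021776, 3R 19931799 to 19935120, minus strand) encodes the adaptor that carries Pros and Brat to the basal side of the neuroblast. Its strongest candidate was the weakest among the 10 genes, and like l(1)sc and ase it had only 1. This candidate lay downstream of the gene, in an intron of Hs6st and nearest to the start of CG4459 (2781 bp), with a pooled signal of 40.6 (rank 23910) and 31.3 in replicate 2, and was not in the list of replicate 1. Neither of its 2 annotated starts had a candidate within 500 bp. Over all coding genes 53.4% had a candidate at a promoter, and among the 10 genes 6 did (sc, dpn, insc, numb, pros and brat).

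**Figure D2:**
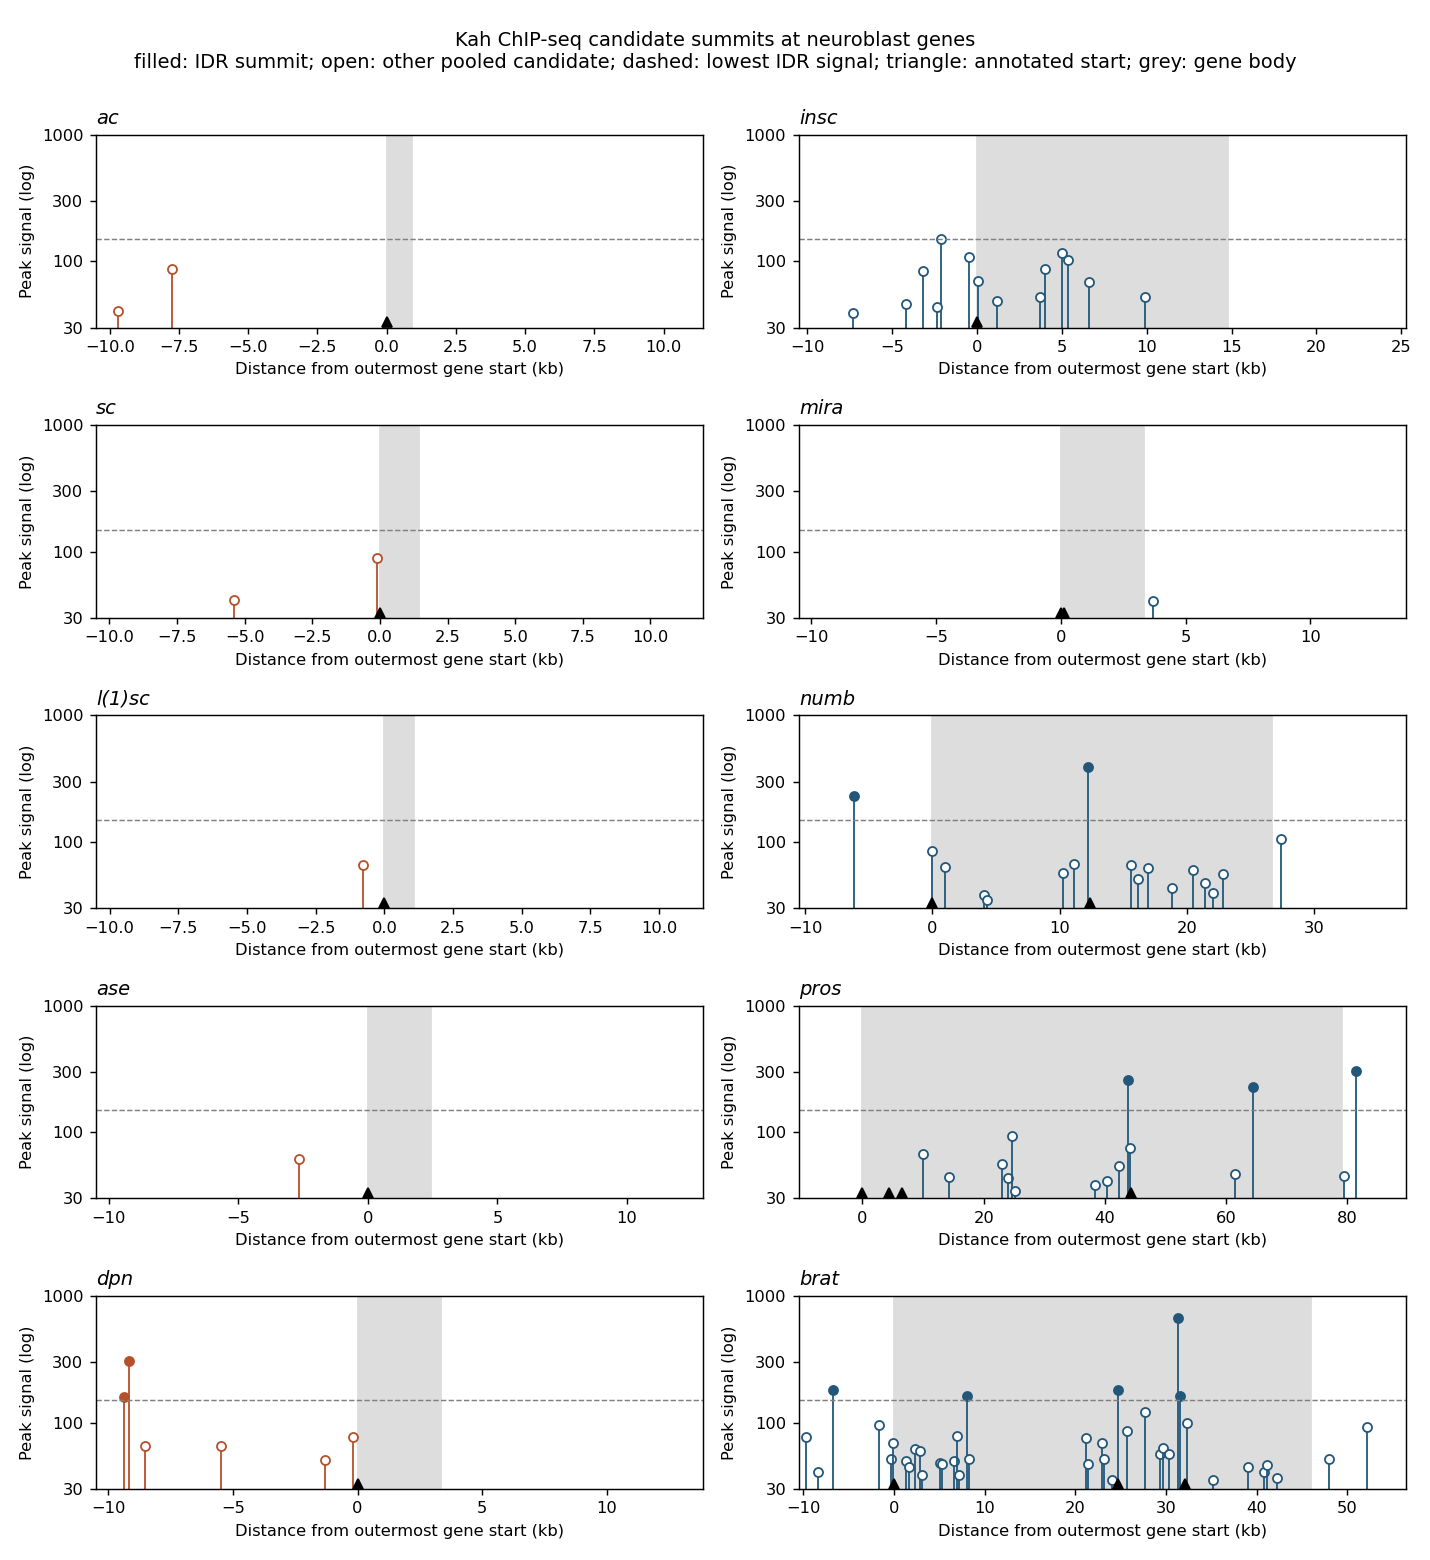
Pooled candidate summits of each gene region by distance from the outermost annotated start (horizontal axis, kb, positive downstream) and pooled peak signal (vertical axis, caller scale, log axis); orange marks bHLH genes, blue division and fate genes, filled points IDR summits, open points other candidates, triangles annotated starts and grey the gene. Filled points lie inside numb, pros and brat, while those of dpn lie over 9 kb upstream and insc has 1 open point at the dashed line.

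The fate determinant genes each had an IDR summit at a promoter, and in all 3 it lay at a start inside the gene. An IDR summit lay within 500 bp of a start in 0 of 5 bHLH genes and 3 of 5 division and fate genes, against 17.0% of all coding genes. Each bHLH gene has 1 start, while numb, pros and brat have 2, 4 and 3, and each start is a further place for a summit. Of 1752 coding genes with a start more than 1000 bp inside the outermost one, 89 had an IDR summit at both kinds of start. A further 244 had it at the outermost start alone and 274 at an inner start alone. The gene numb (FBgn0002973, 2L 9437469 to 9464184, plus strand) encodes an inhibitor of Notch signalling that is passed to a single daughter cell. Its strongest summit, at 9449682, had a pooled signal of 393, with 167 in replicate 1 and 219 in replicate 2. It lay 148 bp upstream of the start of numb-RA and numb-RD, which is 12361 bp inside the outermost start. The annotation marks this inner start as the canonical one of numb, whereas for pros and brat the outermost start is canonical. At the outermost start, that of numb-RB, the candidate had a signal of 84.5, with 33.8 and 48.8 in replicates 1 and 2. The inner start thus had the higher signal in both replicates.

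The gene pros (FBgn0004595, 3R 11328480 to 11407627, plus strand) encodes a homeodomain protein that represses stem cell genes and activates differentiation genes in the ganglion mother cell. Its promoter summit at 11372373 had a pooled signal of 258, with 129 in replicate 1 and 130.1 in replicate 2. It lay 415 bp upstream of the start shared by pros-RJ, pros-RK and pros-RL, 44308 bp inside the outermost start, and in a coding exon of other pros transcripts. The remaining 3 starts of pros, at 0, 4398 and 6500 bp from the outermost, had no candidate within 500 bp. A second IDR summit at 11392978 lay in a 3' UTR of pros, with 230.2 in the pooled list, 121 in replicate 1 and 109.5 in replicate 2, and the nearest start was that of mRpL40, 14940 bp away.

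The gene brat (FBgn0010300, 2L 19133816 to 19179758, plus strand) encodes a translational repressor of the TRIM-NHL family that limits growth of the ganglion mother cell. It held the strongest summit of all 10 regions and the most, with 5 IDR summits among 39 candidates. Of coding genes over 10000 bp, 89.2% had fewer IDR summits and 97.0% had fewer candidates. These shares take no account of length within the class, and brat spans 45943 bp. They also count 2 IDR summits that lay 201 bp apart, and only 3 of the 5 were nearest to a start of brat. The leading summit at 19165161 had a pooled signal of 673 (rank 302), with 368 in replicate 1 and 299 in replicate 2, and lay in an intron 706 bp upstream of the start of brat-RF. A promoter summit at 19158514 had 181 in the pooled list. It lay 26 bp upstream of the start of brat-RB and brat-RC, and in an exon of the non-coding gene lncRNA:CR44977. This one was uneven, with 40.2 in replicate 1 and 147 in replicate 2. At the outermost start of brat the strongest candidate had 69.5, with 38.9 and 31.7 in replicates 1 and 2, and at the brat-RF start 98.9, with 38.0 and 51.5. A weaker intronic IDR summit at 19141912 had a signal of 162, with 103 in replicate 1 and 63.6 in replicate 2, and was nearest to the start of Polr1D, an RNA polymerase subunit gene (6679 bp).

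The sequences within 50 bp of the 5 IDR summits whose nearest coding start was that of numb, pros or brat itself are shown (dm6, plus strand, Release 6). They are chr2L:9449632-9449732 for numb, chr3R:11372323-11372423 for pros, chr2L:19158464-19158564 for the brat-RB start, chr2L:19165111-19165211 for the leading brat summit and chr2L:19165312-19165412 for the brat summit 505 bp upstream of the brat-RF start. The windows labelled by the inner starts of numb and pros are centred on the summits and end short of those starts, at 9449830 and 11372788. Capitals mark any of the 5 short words that were searched, which are spelled out with their counts further on. The last window holds ACAGGT on the minus strand, and none of the words was found in the other 4, which are in lower case throughout. The last window and that of the brat-RB start belong to summits uneven between replicates. Their signals were 40.1 and 40.2 in replicate 1, against 119.7 and 147 in replicate 2.

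numb inner start: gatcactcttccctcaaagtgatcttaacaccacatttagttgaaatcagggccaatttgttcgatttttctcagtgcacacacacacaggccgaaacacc

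pros inner start: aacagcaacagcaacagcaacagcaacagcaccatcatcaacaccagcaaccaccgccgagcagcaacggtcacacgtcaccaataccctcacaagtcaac

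brat-RB start: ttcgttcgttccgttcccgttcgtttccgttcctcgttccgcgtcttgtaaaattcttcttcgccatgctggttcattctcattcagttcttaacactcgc

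brat leading summit: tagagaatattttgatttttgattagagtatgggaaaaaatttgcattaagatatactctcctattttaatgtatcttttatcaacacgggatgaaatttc

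brat summit nearer to the brat-RF start: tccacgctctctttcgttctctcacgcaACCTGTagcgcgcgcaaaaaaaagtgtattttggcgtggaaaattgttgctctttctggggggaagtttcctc

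Their base composition was unlike, with a GC content of 43.6% at numb, 53.5% at pros, 47.5% at the brat-RB start, 25.7% at the leading brat summit and 48.5% at the one beside it. Over the 12 IDR summits of the 10 regions the median was 39.1% (12.9 to 54.5%), against 39.6% over all IDR summits.

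The position of these summits was set beside other genes with more than 1 start. Of the 10 genes, 3 (numb, pros and brat) had a start more than 1000 bp inside the outermost one. All 3 had an IDR summit at such an inner start and 0 had one at the outermost start. In the annotation 1752 coding genes had such a start. Among them 20.7% had an IDR summit at an inner start, 19.0% had one at the outermost start, and 15.6% had one at an inner start and not at the outermost. This comparison was made after the values were seen and was not tested.

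**Figure D3:**
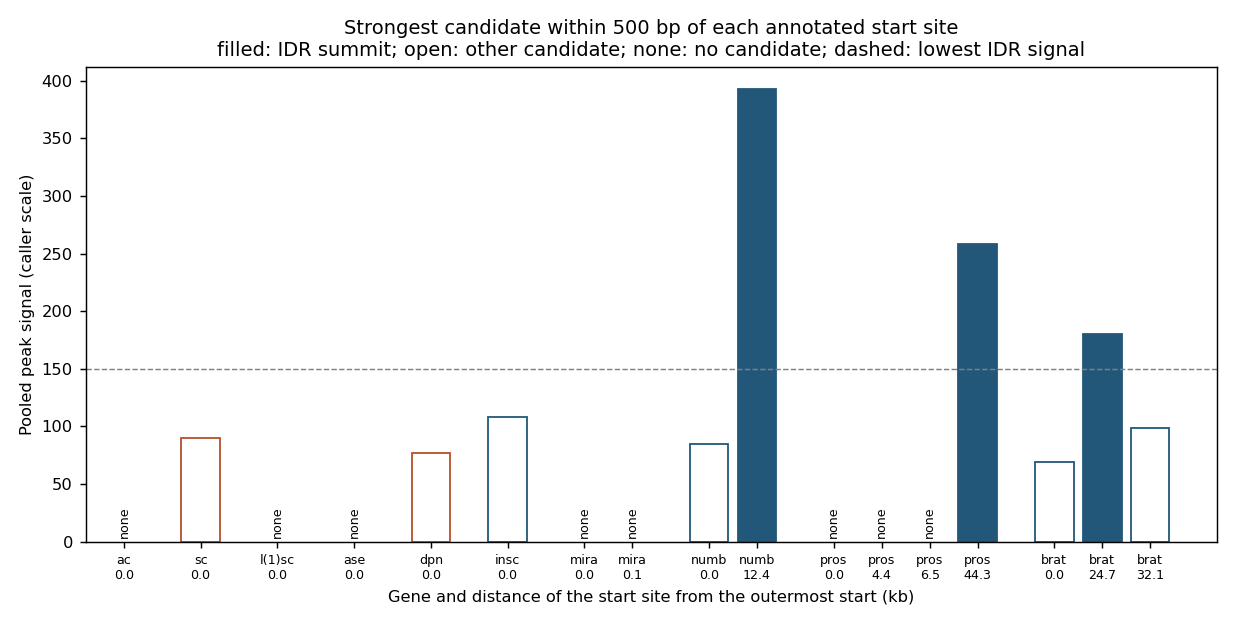
Pooled signal (vertical axis, caller scale) of the strongest candidate within 500 bp of each of the 17 annotated starts of the 10 genes, labelled below with the distance from the outermost start in kb; filled bars are IDR summits, open bars other candidates, and the dashed line the lowest IDR signal. Only the inner starts of numb (393), pros (258) and brat (181) have filled bars, while the outermost starts of numb and brat have open bars and that of pros has none.

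Several IDR summits in these regions lay nearer to another gene. Of the 12, the nearest coding start was that of the gene itself for 5 and of a neighbour for 7, and 3 of those 7 were within 500 bp of the neighbour's start. At numb the summit at 9431276 (signal 232, with 142 in replicate 1 and 89.96 in replicate 2) was 129 bp from the start of scat, a vesicle tethering gene. At pros the strongest summit of the region, at 11409907 (305, with 190.1 and 107), was 32 bp from the start of mgr, a prefoldin subunit gene. At brat the summit at 19127048 (180.3) was 72 bp from the start of l(2)37Cb. Inside the genes themselves lay 0 IDR summits for bHLH genes and 7 for division and fate genes, 1 in numb, 2 in pros and 4 in brat. The gene bodies summed to 9242 bp for bHLH genes and 169896 bp for division and fate genes, so the counts are not comparable without length. Per 10 kb of gene body the division and fate genes had 0.412.

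By annotation, the 12 IDR summits fell in introns (4), intergenic sequence (4), exons of non-coding transcripts (2), a coding exon (1) and a 3' UTR (1), and 0 fell in a 5' UTR, against 16.3% of all IDR summits. Of the other 86 candidates 53 were intronic (61.6%), against 12948 of all 25895 candidates outside the IDR list. This was 5 of 10 at bHLH genes and 48 of 76 at division and fate genes, with 0 of 4 at dpn, 5 of 14 at insc, 12 of 15 at numb, 9 of 12 at pros and 21 of 34 at brat. Distance to the nearest coding start had a median of 460 bp for the 12 IDR summits, against 478 bp for all IDR summits. For all 98 candidates it was 2839 bp at bHLH genes and 1760.5 bp at division and fate genes.

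The replicates listed most of the stronger summits and fewer of the weaker ones. Of the 98 candidates 44 had a summit within 100 bp in both replicate lists (44.9%), against 45.5% of all pooled candidates. For bHLH genes this was 7 of 12 and for division and fate genes 37 of 86. The IDR list was itself chosen by how alike the replicates rank their peaks, so a high matched share there is in part built in. Of the 12 IDR summits 11 were matched in both, against 95.1% of all IDR summits. The exception was the brat summit at 19127048, whose nearest summit in replicate 2 was 108 bp away (signal 87.0), just past the limit, with 90.5 in replicate 1. Among the 11, 7 were higher in replicate 1 and 4 in replicate 2. Of these, 2 lay more than 2 SD from the median log2 ratio, taken from every IDR summit matched in both lists, both in brat and both higher in replicate 2: the brat-RB promoter summit (3.16 SD) and one at 19165362 (2.64 SD; 40.1 in replicate 1 and 119.7 in replicate 2, pooled 161). Over all matched IDR summits 4.84% differed by as much.

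The summit at 19165362 was 201 bp from the leading brat summit, and the 2 dpn summits were 202 bp apart. Such spacings lie at the lower limit of the lists. The shortest distance between neighbouring IDR summits was 199 bp, and of the 207 neighbours under 400 bp apart 144 were within 210 bp. Fragments were 200 to 800 bp long per the labels, so neighbours this close need not be separate sites and their number was not taken as a count of sites.

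**Figure D4:**
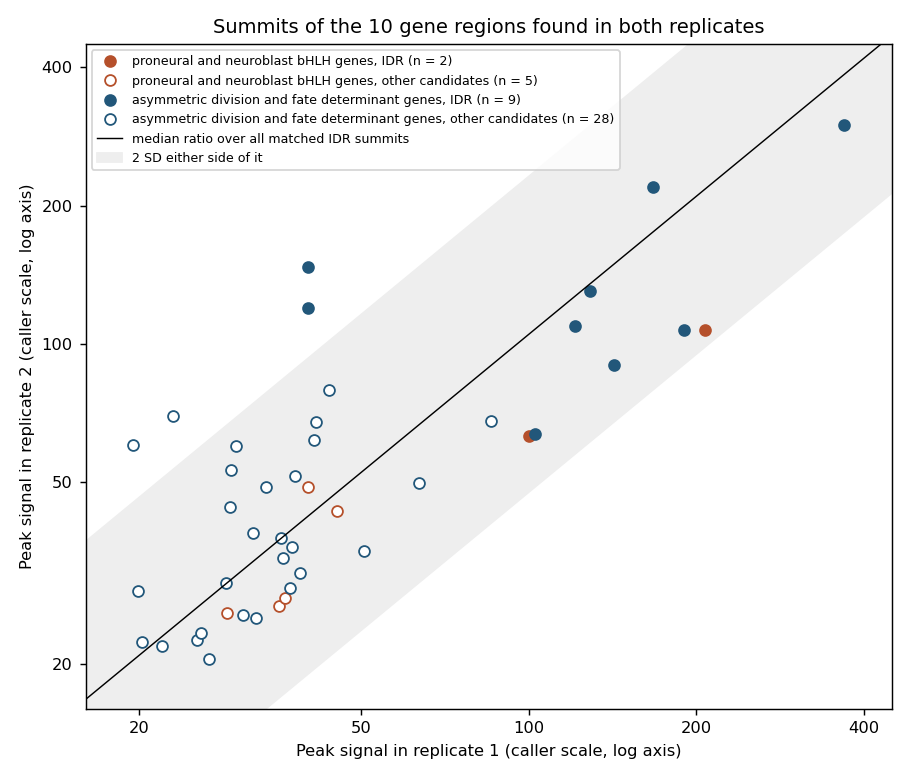
Peak signal in replicate 1 (horizontal axis) and replicate 2 (vertical axis), both on the caller's scale with log axes, for summits of the 10 regions found in both replicates; orange marks bHLH genes, blue division and fate genes, filled points IDR summits and open points other candidates. The line is the median ratio over all matched IDR summits and the band 2 SD on either side; 2 filled points, both in brat, lie above the band, as do some open points of division and fate genes.

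The Snail-family word CAGGTG lay within 50 bp of 0 of the 12 IDR summits and of 2 of the other 86 candidates, both in the insc gene, against 9.87% of all IDR summits and 5.28% of all other candidates. The regions themselves were not without the word: they held from 5 (l(1)sc) to 35 (pros) copies on either strand, or 2.37 to 6.003 per 10 kb, against 4.32 per 10 kb over the genome. Of the copies, those lying within 50 bp of a candidate summit were 2 of 16 at insc and 0 at each of the other 9 genes, against 3.19% over the genome. The word ACAGGT lay at 1 of the 12 IDR summits, the one at 19165362 in brat, and at 4 of the 86 others, against 9.48% and 4.27% in the full lists. CAGCTG, an E-box bound by proneural bHLH proteins with their partner Da, lay at 0 of 12 and 10 of 86, against 5.80% and 5.39%. CACGCG, a site of Hairy-type repressors such as Dpn, lay at 0 of 12 and 3 of 86, against 2.97% and 2.56%. CAGGTA, a site of the early activator Zelda, lay at 0 of 12 and 3 of 86, against 2.87% and 2.15%. Words were sought on both strands; ACAGGT overlaps CAGGTG and CAGGTA where they are preceded by A. A word is only a match of letters, and its absence says nothing of binding.

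A wider list of 33 genes of the same processes was counted in the same way. Of these 18 (54.5%) had an IDR summit in the region and 4 (12.1%) at a promoter, against 57.9% and 17.0% of all coding genes. All 6 genes of the apical complex (baz, par-6, aPKC, pins, Galphai and mud) had an IDR summit in the region, and 1, par-6, had one at a promoter (pooled signal 273, replicate 1 165, replicate 2 99.0). That summit was nearer to the start of CG8188. Of the 3 cortical tumour suppressor genes 2 had an IDR summit in the region, and scrib had one at its start with 164 (37.5 and 132 in replicates 1 and 2). Of the 6 other bHLH genes and partners 3 had one in the region and 2 at a promoter. These were emc, whose product holds bHLH proteins in inactive pairs (289, with 110.4 in replicate 1 and 173 in replicate 2), and da, which encodes the common partner of the proneural proteins (157, with 81.7 and 69.4). Of the 14 neuroblast transcription factor genes 5 had an IDR summit in the region and 0 at a promoter. Of the 2 basal adaptor genes and of the 2 mitotic kinase genes 1 each had one in the region and 0 at a promoter.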

How the data were processed

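Whole embryos with GFP-tagged Kah were profiled by ChIP-seq in 2 biological replicates, numbered as in the labels. The deposited files used were narrowPeak lists, 1 candidate list per replicate, 1 pooled list and the IDR list. The listing deposited with them gives 1 shared control alignment for all candidate lists and derives the IDR list from those. Signal values are those the authors deposited, with no stated scaling. The −log10 q deposited beside them stood at its highest value for all 4105 IDR summits and was used only to see that. Neither aligner nor caller is given in the sources used here, read depth is unknown, and signal tracks were not used here.

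Coordinates are 1-based dm6. Genes came from Ensembl release 115 and sequence from the Release 6 assembly, beyond whose ends 0 peaks ran. A summit in several annotation classes took the first of 5' UTR, then coding, 3' UTR and non-coding exons, then intron. Summits matched within 100 bp; a promoter was 500 bp on either side of a coding start, and words were sought within 50 bp of a summit. Computation used Python 3.11.15, numpy 2.4.6 and pandas 2.3.3, and the counting was tested on simulated summits. No significance test was run, since there was 1 group and the genes and lists were chosen with earlier results of these data known. Every gene, its IDR summits (up to 4 by signal) or strongest candidate, and genes of the wider list with an IDR promoter summit were named by rule; others of that list carry no values; all further summits in the text, the comparison of inner starts and the word CAGGTA were chosen after their values were seen.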

Additional observations from a re-analysis of the deposited data

How the results depend on the processing

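Role group values were recomputed under 40 alternatives, of which 29 stayed within 1.5 times the reported value. A 0 that stayed 0 was counted among these. Where the reported value was 0, a smaller window, fewer starts or the stronger IDR summits could only give 0 again, so such counts overstate stability. Of the 5 bHLH genes the 1 with an IDR summit, dpn, had it near the edge of its region. The number of such genes was thus 0 with 5000 bp windows, in the gene body alone and by nearest start. The density of 0.197 per 10 kb was 0 in the same settings. That density was 0.0986 among the stronger IDR summits and 0.0986 to 0.197 with 1 replicate left out. The density of 0.371 at division and fate genes was 0.148 among the stronger IDR summits and 0.222 by nearest start. Of the 5 division and fate genes 3 had an IDR promoter summit, but 1 with canonical starts alone, which leave out the inner starts of pros and brat. With 1 replicate left out, division and fate genes with a summit in the region numbered 3 or 4 and those with one at a promoter 2 or 3. The same number of strongest candidates as in the IDR list gave insc 2 summits in replicate 1 alone and brat 3. Of 129 recomputed values of single genes 106 stayed within 1.5 times, again with values of 0 that could only stay 0 among them. The others included dpn, numb and brat with the stronger IDR summits (1 each), and sc, whose promoter summit had no match in both replicates within 50 bp. No paired analysis was possible because there was 1 group. Read depth is unknown, so a region with no IDR summit had none detected at this depth, and signals below the list's minimum are not seen.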
